A study of Homo sapiens with 6 samples.

Results

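The 69 genes described here encode the matrix metalloproteases (MMP), the ADAM and ADAMTS metalloproteases and the tissue inhibitors of metalloproteases (TIMP), out of 51103 genes in the deposited tables. They were taken by gene symbol alone, and number 24 MMP, 22 ADAM, 19 ADAMTS and 4 TIMP genes. ADAM5, ADAM6 and MMP23A are annotated as pseudogenes and are included in that count. RNA came from 2 established gastric cancer cell lines, AGS and HGC-27, harvested after 48 hours. AGS carrying the lentivirus meant to overexpress NINJ1 (ninjurin-1, a cell-surface protein that takes part in plasma membrane rupture) gave 2 libraries and the AGS negative control gave 1. HGC-27 with the NINJ1 lentivirus likewise gave 2 libraries and its negative control 1. What the negative control received, the promoter of the vector and whether the transduced cells were a clone or a pool are not given in the sources used here.

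The labels leave the line of 2 libraries in doubt, because the replicate 2 NINJ1 libraries have opposite lines in their titles and in their file names. The file names set the lines further apart. Between the NINJ1 libraries of the 2 lines, 7084 of 17617 tested genes were called with the file names and 0 with the titles (edgeR adjusted p under 0.05). Which label is right was not tested. Lines are those of the file names here, and the number of calls with lines as titled is given for each comparison. Total counts lay between 12619684 and 18175697 per library. The HGC-27 control stood apart: genes with a GC content above 60% gave 2.31% of its counts, against 9.25% to 11.3% in the other 5 libraries. NINJ1 mRNA was at 6.88 and 7.53 FPKM in the HGC-27 NINJ1 libraries and 1.48 FPKM in the HGC-27 control, but at 7.81 and 6.29 FPKM in the AGS libraries labelled NINJ1 and 10.9 FPKM in the AGS control. NINJ1 level thus went against the label in AGS (log2 change -0.68, SE 0.19, edgeR adjusted p = 0.0148). In HGC-27 it was higher, with a log2 change of 1.89 (SE 0.24, edgeR adjusted p = 3.22e-08) that was 0.57 after the correction for GC content described below (adjusted p = 0.0394). The libraries of both lines are called NINJ1-labelled below. Of the epithelial markers, KRT8 and KRT18 were at 48.6 to 111 FPKM in all 6 libraries, while KRT19 and CDH1 were at or below 0.454 FPKM. The labels leave unsaid whether replicates came from separate cultures, and the p-values reflect library-to-library spread, which may be technical.

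MMPs are zinc proteases, mostly secreted, that cut collagens and other matrix proteins. The membrane-type MMPs stay on the cell surface through a transmembrane segment or a lipid anchor. ADAMs are membrane proteases that release the ectodomains of growth factors, cytokines and receptors, a process called shedding, while ADAMTS proteases are secreted and cut proteoglycans, procollagens and other matrix proteins. TIMPs bind the active site of these enzymes, with TIMP3 reaching several ADAM and ADAMTS enzymes beside the MMPs, and the balance of proteases and TIMPs is a long-standing subject in gastric cancer invasion.

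The regulatory sequence upstream of these genes was looked up in RefSeq (GRCh38.p14), where 39 of the 69 had a promoter entry. The 250 bases before the RefSeq start of 4 members are shown because they span the families' contrast: MMP14 and TIMP3 were lower in AGS than in HGC-27, TIMP1 was higher, and MMP7 belongs to the gene cluster of secreted MMPs that had few or no counts. They lie at chr14:22836335-22836584 (plus strand, MMP14), chrX:47582186-47582435 (plus strand, TIMP1), chr22:32801455-32801704 (plus strand, TIMP3) and chr11:102530748-102530997 (minus strand, MMP7). Capitals mark 3 motifs, searched on either strand. The first is GGGCGG, the core that Sp1-type factors bind. An AP-1 type element was searched as TGANTCA. The third was TATAAA, the core promoter element. The marked motifs do not overlap in these sequences.
MMP14: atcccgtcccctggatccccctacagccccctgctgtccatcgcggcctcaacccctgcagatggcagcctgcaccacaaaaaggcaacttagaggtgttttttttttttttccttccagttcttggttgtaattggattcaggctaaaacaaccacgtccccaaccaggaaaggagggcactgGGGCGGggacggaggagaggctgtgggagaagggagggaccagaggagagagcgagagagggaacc
TIMP1: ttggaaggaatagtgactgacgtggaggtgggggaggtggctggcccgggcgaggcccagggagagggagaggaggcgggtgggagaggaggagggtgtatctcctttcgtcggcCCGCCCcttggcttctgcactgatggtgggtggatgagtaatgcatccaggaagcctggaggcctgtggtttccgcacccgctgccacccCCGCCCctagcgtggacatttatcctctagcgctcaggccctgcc
TIMP3: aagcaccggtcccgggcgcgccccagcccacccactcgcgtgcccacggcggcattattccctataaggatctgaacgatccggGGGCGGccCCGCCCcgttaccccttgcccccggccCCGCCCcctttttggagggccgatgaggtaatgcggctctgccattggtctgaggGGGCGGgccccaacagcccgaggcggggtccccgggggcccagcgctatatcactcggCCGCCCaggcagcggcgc
MMP7: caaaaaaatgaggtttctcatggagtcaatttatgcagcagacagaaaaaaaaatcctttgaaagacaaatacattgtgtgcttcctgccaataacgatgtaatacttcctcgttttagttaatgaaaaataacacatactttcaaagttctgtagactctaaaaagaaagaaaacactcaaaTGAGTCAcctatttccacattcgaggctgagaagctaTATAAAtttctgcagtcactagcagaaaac
The TIMP3 window holds 5 copies of the Sp1-type motif, the TIMP1 window 2 and the MMP14 window 1. The MMP7 window holds none, but 1 AP-1 type element and 1 TATAAA. Over all 35116 RefSeq promoters of the same 250 bases, 42.6% hold GGGCGG, 6.57% TGANTCA and 10.7% TATAAA. Among the 39 members with an entry these motifs occur in 26, 4 and 7. The Sp1-type motif is in 18 of 21 members with enough counts to be tested and in 8 of 18 without, and TATAAA is in 2 of the 21 and 5 of the 18. A match describes the letters only.

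A large part of the family had few or no counts. No library held a count of 17 members (8 MMP, 7 ADAM and 2 ADAMTS), among them MMP3 (stromelysin-1), MMP8 (neutrophil collagenase) and MMP12 (macrophage elastase). Another 14 members had at most 8 counts in any library and were not tested, including MMP2 (gelatinase A), with 2 and 0 counts in the AGS NINJ1-labelled libraries, 4 in the AGS control, 2 and 4 in the HGC-27 NINJ1-labelled libraries and 6 in the HGC-27 control. The remaining 38 (10 ADAM, 13 ADAMTS, 11 MMP and 4 TIMP) entered the tests, and 22 of them reached 1 FPKM (counts relative to transcript length and to the total of the library) in at least 2 libraries. The filter asks for about 10 counts in 1 library: 20 of the 38 reached that in all 6 libraries, while MMP1, MMP7, MMP11 and MMP13 reached it in 1 library only and MMP9 in the HGC-27 NINJ1-labelled libraries only. Only 5 averaged at least 10 FPKM over the 6 libraries: TIMP1, TIMP2, ADAM9, ADAM15 and MMP15. All members together took between 0.0840% and 0.162% of a library's counts.

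TIMP transcripts exceeded MMP transcripts in each of the 6 libraries. The 4 TIMP genes summed to 197.8 and 191.7 FPKM in the AGS NINJ1-labelled libraries and 201.8 FPKM in the AGS control, and to 120.6 and 121.2 FPKM in the HGC-27 NINJ1-labelled libraries and 53.8 FPKM in the HGC-27 control. MMP genes summed to 28.8 and 28.2 FPKM in AGS NINJ1-labelled libraries, 36.8 FPKM in the AGS control, 31.3 and 34.5 FPKM in HGC-27 NINJ1-labelled libraries and 7.21 FPKM in the HGC-27 control. The ratio of the sums, TIMP over MMP, lay between 3.51 and 7.46 in the 6 libraries. Membrane-type enzymes made up nearly all of the MMP sum in 5 libraries: 27.9 and 26.9 FPKM in the AGS NINJ1-labelled libraries, 34.2 FPKM in the AGS control, 29.8 and 33.0 FPKM in the HGC-27 NINJ1-labelled libraries and 5.43 FPKM in the HGC-27 control. The 18 other MMP genes together gave 0.872 to 2.52 FPKM. ADAM sums were 60.1 to 92.9 FPKM and ADAMTS sums 8.12 to 17.7 FPKM.

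**Figure D1:**
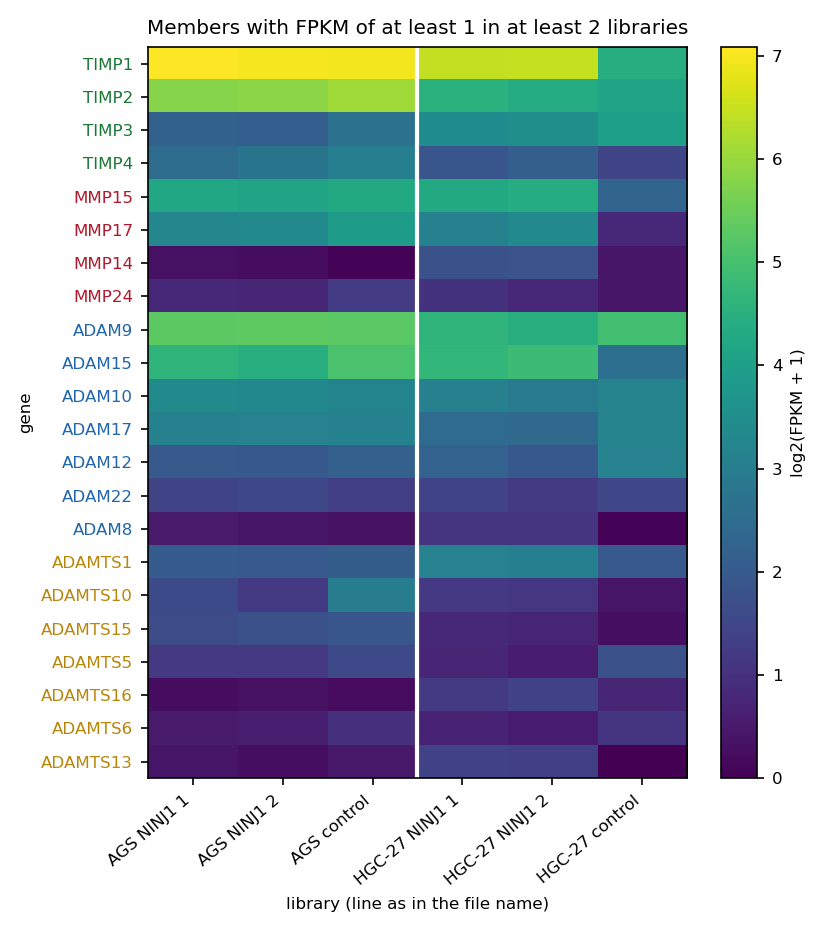
Level of the 22 members that reached 1 FPKM in at least 2 libraries, as log2(FPKM + 1), 1 row per gene and 1 column per library, with AGS left of HGC-27 by file name. TIMP1, TIMP2, ADAM9 and ADAM15 carry the highest levels, and the HGC-27 control differs from the HGC-27 NINJ1-labelled libraries for TIMP1, MMP15, MMP17 and ADAM15.

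**Figure D2:**
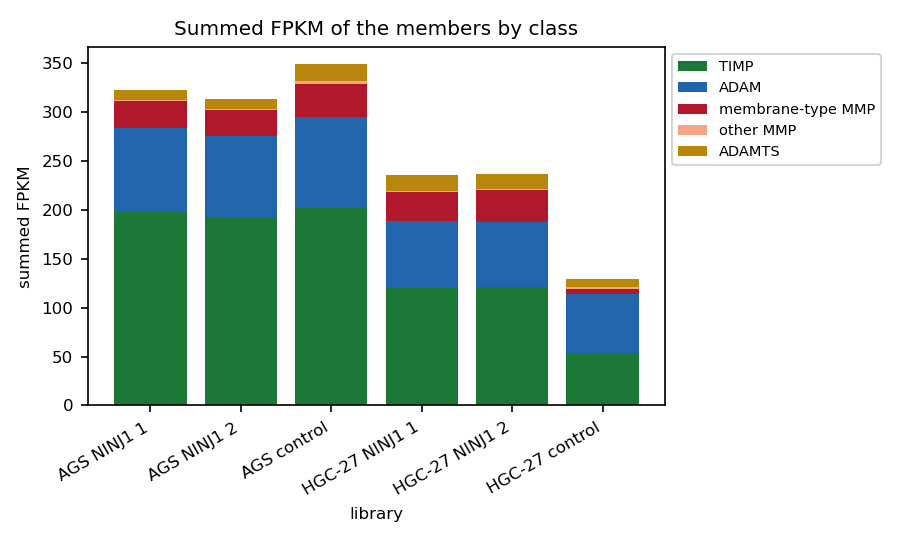
Summed FPKM of all 69 members by class in each library, with the 6 membrane-type MMP genes apart from the 18 other MMP genes. TIMP transcripts form the largest class in 5 libraries, and the HGC-27 control has the lowest total, 129.3 FPKM against 235.5 to 349.2 FPKM in the other 5.

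The first comparison asked how the 2 lines differ in these genes, between the 2 AGS and the 2 HGC-27 NINJ1-labelled libraries. AGS had more TIMP1, TIMP2, TIMP4, ADAM9 and ADAM17, and HGC-27 had more TIMP3, MMP14, ADAMTS1 and ADAMTS16. Of 38 tested members, 12 were higher and 10 lower in AGS at an adjusted p under 0.05 (edgeR's quasi-likelihood test, Benjamini-Hochberg adjustment over all 17617 tested genes). That is 57.9% of members, beside 40.2% of all tested genes (20.2% higher and 20% lower). The median log2 difference was 0.05 over the members and -0.01 over all genes. In a bulk RNA sample, fewer cells making a transcript and less of it per cell cannot be told apart.

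All 4 TIMPs differed between the lines. TIMP2 (ENSG00000035862, chr17:78852977-78925387, minus strand), which also takes part in the activation of MMP2 by MMP14, had 54.8 and 56.6 FPKM in AGS NINJ1-labelled libraries against 22.2 and 19.4 FPKM in HGC-27 NINJ1-labelled libraries. The controls stood at 66.1 FPKM in AGS and 16.5 FPKM in HGC-27, so that each AGS library lay above each HGC-27 library (log2 1.42, SE 0.11, edgeR adjusted p = 8.13e-13). TIMP1 (ENSG00000102265, chrX:47582313-47586789, plus strand), whose promoter is printed above, had 134.7 and 126.0 FPKM in AGS NINJ1-labelled libraries against 85.6 and 87.8 FPKM in HGC-27 NINJ1-labelled libraries, with 123.2 FPKM in the AGS control and 20.5 FPKM in the HGC-27 control (log2 0.58, SE 0.11, edgeR adjusted p = 2.79e-05). TIMP3 (ENSG00000100234, chr22:32801701-32863043, plus strand), the TIMP that binds to the matrix, ran the other way. It had 3.62 and 3.32 FPKM in AGS NINJ1-labelled libraries against 9.99 and 10.6 FPKM in HGC-27 NINJ1-labelled libraries, and its controls were at 5.20 FPKM in AGS and 15.0 FPKM in HGC-27 (log2 -1.57, SE 0.14, edgeR adjusted p = 3.56e-11). No AGS library reached the level of any HGC-27 library. TIMP4 (ENSG00000157150, chr3:12153051-12159351, minus strand) had 4.71 and 5.80 FPKM in AGS NINJ1-labelled libraries against 2.72 and 3.46 FPKM in HGC-27 NINJ1-labelled libraries (log2 0.76, SE 0.23, edgeR adjusted p = 0.00810), with 7.30 FPKM in the AGS control and 1.77 FPKM in the HGC-27 control. The call of TIMP4 was lost without HGC-27 NINJ1-labelled replicate 1 (edgeR adjusted p = 0.0545), without AGS NINJ1-labelled replicate 2 (0.144) and with DESeq2 (0.141).

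Of 11 tested MMPs, 2 were higher (MMP1 and MMP13) and 2 lower (MMP14 and MMP28) in AGS, 36.4% of them. MMP14 (ENSG00000157227, chr14:22836557-22849027, plus strand), also called MT1-MMP, cuts fibrillar collagen and activates MMP2. It had 0.25 and 0.17 FPKM in AGS NINJ1-labelled libraries against 2.41 and 2.55 FPKM in HGC-27 NINJ1-labelled libraries, and its controls were at 0.05 FPKM in AGS and 0.35 FPKM in HGC-27. AGS was thus 11.9-fold lower (log2 -3.57, SE 0.32, edgeR adjusted p = 4.61e-11). The most abundant MMPs, MMP15 (MT2-MMP) and the lipid-anchored MMP17, had log2 differences of -0.16 (SE 0.12) and 0.07 (SE 0.14) and were not called. With a correction for GC content, described below, MMP17 was called at 0.40 (edgeR adjusted p = 0.0107). The interstitial collagenase MMP1 had 5 and 15 counts in AGS NINJ1-labelled libraries and 9 in the AGS control, against 0 in all 3 HGC-27 libraries, which makes the AGS NINJ1-labelled libraries at least 3.76-fold higher than those of HGC-27. This bound sets 3 counts in each empty library and covers counting error only, and it is 1.93-fold without AGS NINJ1-labelled replicate 2, whose line is in doubt and through which alone MMP1 passed the filter. Collagenase-3, MMP13, had 5 and 5 counts in AGS NINJ1-labelled libraries against 0 and 0 in HGC-27 NINJ1-labelled libraries (at least 1.90-fold higher), with 43 counts in the AGS control, through which alone it passed the filter, and 4 in the HGC-27 control. MMP28 (epilysin) had 7 and 1 counts in AGS NINJ1-labelled libraries against 18 and 22 in HGC-27 NINJ1-labelled libraries (log2 -2.10, SE 0.69, edgeR adjusted p = 0.0141), and lost its call without AGS NINJ1-labelled replicate 2 (0.209) and with DESeq2 (0.132).

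The main sheddases were moderately higher in AGS. ADAM9 (ENSG00000168615, a broadly expressed sheddase) had 38.6 and 38.9 FPKM in AGS NINJ1-labelled libraries against 23.5 and 20.9 FPKM in HGC-27 NINJ1-labelled libraries (log2 0.80, SE 0.11, edgeR adjusted p = 1.64e-07), with 37.9 FPKM in the AGS control and 29.4 FPKM in the HGC-27 control. ADAM17 (ENSG00000151694, chr2:9488486-9556732, minus strand), the enzyme that releases TNF and several EGF receptor ligands, had 7.62 and 7.79 FPKM in AGS NINJ1-labelled libraries against 4.52 and 4.35 FPKM in HGC-27 NINJ1-labelled libraries (log2 0.79, SE 0.12, edgeR adjusted p = 1.16e-06). Its controls, at 7.72 FPKM in AGS and 7.94 FPKM in HGC-27, did not show that order. ADAM10 (ENSG00000137845), which cuts Notch and cadherins, had 9.28 and 8.98 FPKM in AGS NINJ1-labelled libraries against 7.44 and 6.79 FPKM in HGC-27 NINJ1-labelled libraries (log2 0.36, SE 0.11, edgeR adjusted p = 0.00731), with 8.09 FPKM in the AGS control and 7.99 FPKM in the HGC-27 control. That call ended without AGS NINJ1-labelled replicate 1 (edgeR adjusted p = 0.131) and without AGS NINJ1-labelled replicate 2 (0.0970). ADAM8, a sheddase best known from leukocytes, was lower, at 0.41 and 0.32 FPKM in AGS NINJ1-labelled libraries against 1.08 and 1.08 FPKM in HGC-27 NINJ1-labelled libraries (log2 -1.57, SE 0.35, edgeR adjusted p = 0.000383). ADAM32, known from the testis, had 47 and 57 counts in AGS NINJ1-labelled libraries and 49 in the AGS control, against 15 and 24 in HGC-27 NINJ1-labelled libraries and 0 in the HGC-27 control (log2 1.59, SE 0.38, edgeR adjusted p = 0.00102, and 0.0544 with DESeq2). Not called were ADAM15, ADAM12, ADAM22 and ADAM11, with log2 differences from -0.24 to 0.32, and ADAM21. ADAM21 had 17 and 14 counts in AGS NINJ1-labelled libraries and 26 in the AGS control, against 8 and 4 in HGC-27 NINJ1-labelled libraries and 3 in the HGC-27 control.

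ADAMTS genes differed in both directions, with 3 of 13 tested higher and 6 lower in AGS. ADAMTS1 (ENSG00000154734, chr21:26835747-26845409, minus strand), a proteoglycan-cutting enzyme, had 3.16 and 2.91 FPKM in AGS NINJ1-labelled libraries against 7.74 and 7.26 FPKM in HGC-27 NINJ1-labelled libraries (log2 -1.31, SE 0.14, edgeR adjusted p = 1.97e-09), with 3.25 FPKM in the AGS control and 2.95 FPKM in the HGC-27 control. ADAMTS5 (ENSG00000154736, chr21:26917912-26966513, minus strand), the neighbouring gene and a major aggrecanase of cartilage, was higher, at 1.28 and 1.26 FPKM in AGS NINJ1-labelled libraries against 0.71 and 0.47 FPKM in HGC-27 NINJ1-labelled libraries (log2 1.10, SE 0.21, edgeR adjusted p = 4.94e-05). In the controls ADAMTS5 stood at 1.98 FPKM in AGS and 2.40 FPKM in HGC-27, the opposite order. ADAMTS15, another proteoglycan-cutting enzyme, had 2.12 and 2.40 FPKM in AGS NINJ1-labelled libraries against 0.74 and 0.66 FPKM in HGC-27 NINJ1-labelled libraries (log2 1.69, SE 0.22, edgeR adjusted p = 1.21e-07), with 2.72 FPKM in the AGS control and 0.20 FPKM in the HGC-27 control. ADAMTS16 was at 0.18 and 0.26 FPKM in AGS NINJ1-labelled libraries against 1.32 and 1.63 FPKM in HGC-27 NINJ1-labelled libraries (log2 -2.76, SE 0.32, edgeR adjusted p = 9.07e-09), with 0.16 FPKM in the AGS control and 0.66 FPKM in the HGC-27 control. For both genes the 3 AGS and the 3 HGC-27 libraries did not overlap. ADAMTS13 (ENSG00000160323), the protease of von Willebrand factor, had 23 and 15 counts in AGS NINJ1-labelled libraries and 32 in the AGS control, against 132 and 131 in HGC-27 NINJ1-labelled libraries and 0 in the HGC-27 control (log2 -2.60, SE 0.31, edgeR adjusted p = 2.66e-08). The procollagen-cutting ADAMTS14 had 12 and 3 counts in AGS NINJ1-labelled libraries against 45 and 57 in HGC-27 NINJ1-labelled libraries, and ADAMTS9 had 1 and 13 in the AGS against 38 and 57 in the HGC-27 libraries (both log2 -2.56, SE 0.53). Counts of ADAMTS20 were 1 and 0 in AGS NINJ1-labelled libraries against 41 and 20 in HGC-27 NINJ1-labelled libraries (edgeR adjusted p = 1.90e-05). For ADAMTS8 they were 14 and 9 in the AGS against 1 and 2 in the HGC-27 libraries (edgeR adjusted p = 0.0131), a call lost with DESeq2 (0.119), without AGS NINJ1-labelled replicate 1 (0.110) and without HGC-27 NINJ1-labelled replicate 1 (0.0551).

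**Figure D3:**
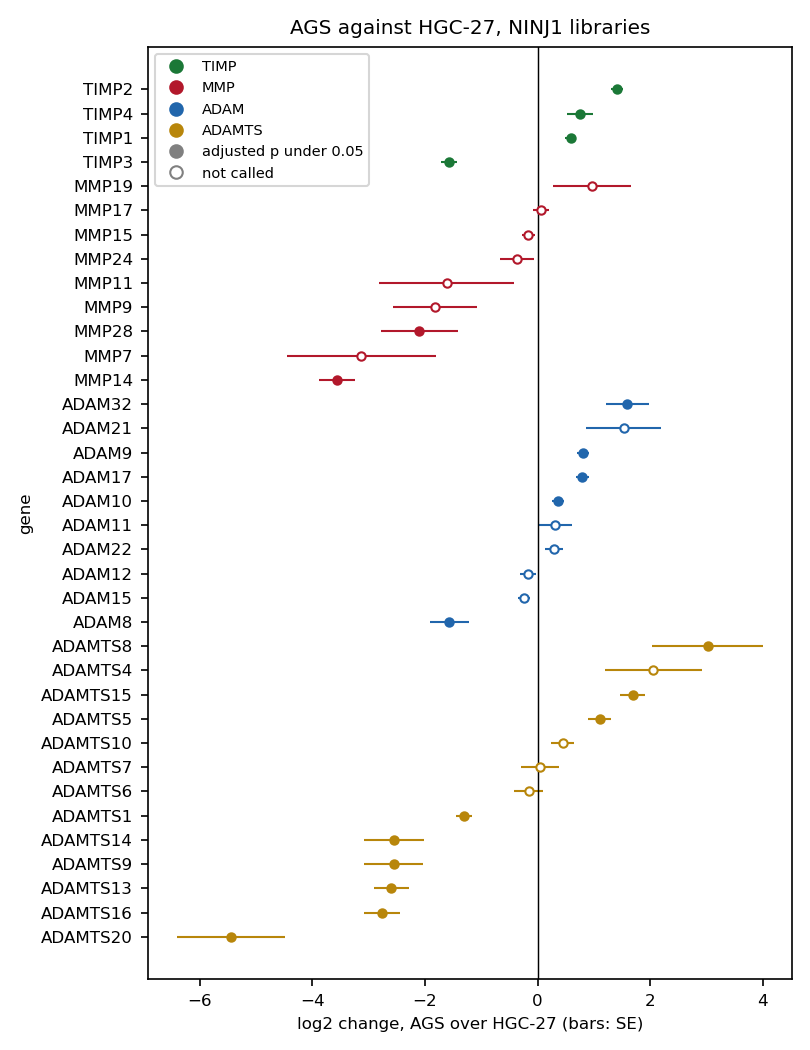
Log2 difference, AGS over HGC-27, between the NINJ1-labelled libraries (2 each) for 36 of 38 tested members, with the SE as bars and filled points for adjusted p under 0.05. MMP1 and MMP13, with no count in the HGC-27 libraries used, are left out, and TIMP3, MMP14, MMP28, ADAM8 and 6 ADAMTS genes lie on the HGC-27 side.

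The controls, which this test did not use as groups, gave the same direction for 15 of the 22 called members on CPM scaled by TMM. The other 7 were ADAM8, ADAM10, ADAM17, ADAMTS5, ADAMTS13, ADAMTS14 and ADAMTS20. On FPKM the number was also 15, with ADAM10 in the direction of its call and ADAMTS1 against it. Over 3 AGS against 3 HGC-27 libraries, scaled CPM did not overlap for 12 members higher in AGS and 7 lower, which is 50% of the 38 tested, beside 34.1% of all tested genes. Of these, ADAM21, ADAMTS4, ADAMTS8, MMP1, MMP13 and MMP19 reached the filter's cutoff in AGS libraries only, and MMP9 and MMP28 in HGC-27 libraries only. Their lack of overlap was partly set by the filter and adds nothing on the lines. The shares without such genes were not computed. The correction for GC content kept all 22 calls and called 24 members, beside 43.7% of all tested genes. Of the libraries of doubtful line, leaving out AGS NINJ1-labelled replicate 2 gave 20 called members beside 27.8% of all tested genes, and leaving out HGC-27 NINJ1-labelled replicate 2 gave 24 beside 39.2%. With lines as titled, 0 members and 0% of all genes were called (edgeR, with 0 members and 19 genes at an unadjusted p under 0.05). The 4 libraries of certain line were fitted by a model of line plus treatment, which brings in both controls. With it 1 member was called, beside 3.34% of all genes. On all 6 libraries that model called 6 members beside 6.14% of all genes, and 17 beside 22% with the GC correction. The count of 1 thus differs from the 22 in model as well as in libraries.

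The second comparison set the 2 AGS libraries labelled NINJ1 against the AGS control. Members were called in 1 direction there: 10 of 38 fell and 0 rose, which is 26.3% of members beside 15% of all tested genes (edgeR, 9.3% of all genes lower and 5.73% higher). The median log2 change was -0.42 over the members and 0.00 over all tested genes. The 38 include MMP13, called lower, and MMP11, not called, which passed the filter through the AGS control alone. Their direction was thus largely set by the filter, and neither the count nor the median was computed without them. The 10 were ADAM15, ADAMTS4, ADAMTS5, ADAMTS6, ADAMTS10, ADAMTS20, MMP13, MMP17, MMP24 and TIMP3, so 5 of 13 ADAMTS, 3 of 11 MMP, 1 of 10 ADAM and 1 of 4 TIMP genes. Since NINJ1 mRNA was itself lower in these libraries than in the control, the direction belongs to the libraries as labelled.

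Of the ADAMTS genes, ADAMTS10 changed with the smallest p. ADAMTS10 (ENSG00000142303, chr19:8580242-8610735, minus strand), which acts on fibrillin microfibrils, had 2.03 and 1.31 FPKM in AGS NINJ1-labelled libraries against 6.81 FPKM in the AGS control, a 4.25-fold fall (log2 -2.09, SE 0.22, edgeR adjusted p = 1.33e-08). Its relative ADAMTS6 fell to 0.43 and 0.52 FPKM in NINJ1-labelled libraries, against 1.01 FPKM in the control (log2 -1.15, SE 0.29, edgeR adjusted p = 0.00519). ADAMTS5 was at 1.28 and 1.26 FPKM in NINJ1-labelled libraries against 1.98 FPKM in the control (log2 -0.70, SE 0.22, edgeR adjusted p = 0.0301). Both NINJ1-labelled libraries lay below the control for each of these genes. Aggrecanase-1, ADAMTS4, had 13 and 6 counts in NINJ1-labelled libraries against 40 in the control (log2 -2.00, SE 0.70, edgeR adjusted p = 0.0496), and ADAMTS20 had 1 and 0 in NINJ1-labelled libraries against 14 in the control (edgeR adjusted p = 0.00861). ADAMTS1 and ADAMTS15, at 2.91 to 3.25 FPKM and 2.12 to 2.72 FPKM in the AGS libraries, were not called.

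MMP13 had 5 and 5 counts in AGS NINJ1-labelled libraries against 43 in the AGS control (log2 -3.02, SE 0.76, edgeR adjusted p = 0.00574). It was tested only because of its count in that control, so its call adds nothing on the direction of the family. MMP17 (ENSG00000198598) was at 8.75 and 9.30 FPKM in NINJ1-labelled libraries against 14.0 FPKM in the control (log2 -0.68, SE 0.17, edgeR adjusted p = 0.00419). MMP24, a membrane-type MMP known from the nervous system, was at 0.74 and 0.65 FPKM in NINJ1-labelled libraries against 1.38 FPKM in the control (log2 -1.05, SE 0.35, edgeR adjusted p = 0.0380). After correction for GC content 8 members fell and 1 rose in AGS, beside 10.3% and 8.2% of all tested genes. The calls of MMP17 and MMP24 ended with it (edgeR adjusted p = 0.487 and 0.0809). MMP14 had 0.25 and 0.17 FPKM in NINJ1-labelled libraries against 0.05 FPKM in the control, and missed the threshold (log2 2.01, SE 0.75, edgeR adjusted p = 0.0669) but passed it once GC content was corrected for (2.18, edgeR adjusted p = 0.0401). MMP15, at 18.1 and 16.6 FPKM in NINJ1-labelled libraries and 18.7 FPKM in the control, was not called.

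ADAM15 (ENSG00000143537, chr1:155050566-155062775, plus strand), whose disintegrin domain binds integrins, had 23.2 and 21.4 FPKM in AGS NINJ1-labelled libraries against 32.1 FPKM in the AGS control (log2 -0.58, SE 0.13, edgeR adjusted p = 0.00157). TIMP3 was at 3.62 and 3.32 FPKM in NINJ1-labelled libraries against 5.20 FPKM in the control (log2 -0.64, SE 0.17, edgeR adjusted p = 0.0101). The sheddases ADAM9, ADAM10 and ADAM17 and the inhibitor TIMP1 had log2 changes between -0.06 and 0.12 and were not called. Fibroblast markers moved in the same direction: their summed level was 3.82 and 3.28 FPKM in NINJ1-labelled libraries against 10.9 FPKM in the control, all 3 tested of 7 fell (COL1A1, PDGFRB and DCN), DCN was at 0 and 0 FPKM in NINJ1-labelled libraries against 0.0391 FPKM in the control, and PDGFRA was at 0 FPKM in all of them. Endothelial markers summed to 0.197 and 0.114 FPKM in NINJ1-labelled libraries against 0.715 FPKM in the control, and 1 of 3 tested of 5, PECAM1, fell (log2 -2.73, SE 0.57, edgeR adjusted p = 0.000925). Epithelial markers also summed lower, to 126.9 and 124.3 FPKM in NINJ1-labelled libraries against 149.8 FPKM in the control, with 0 higher and 1 lower of 5 tested of 6. Leukocyte markers summed to 0.339 and 1.24 FPKM in NINJ1-labelled libraries against 1.62 FPKM in the control, with 0 higher and 0 lower of 2 tested of 7. The part of these marker lists in the members' change was not tested.

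**Figure D4:**
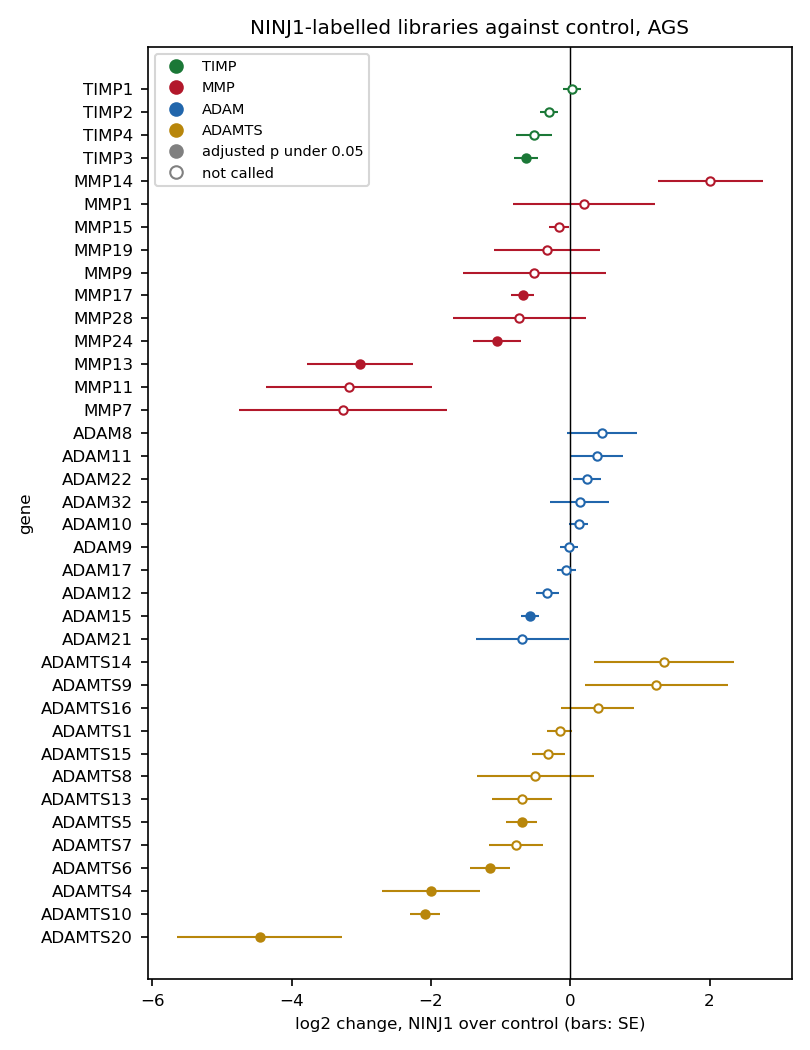
Log2 change, NINJ1-labelled over control, in AGS for the 38 tested members (2 libraries against 1), with the SE as bars and filled points for adjusted p under 0.05. The 10 filled points all lie below 0, with ADAMTS10 at -2.09.

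Like the share of all tested genes called, the count of called members in AGS rested on few libraries. It was 4 without AGS NINJ1-labelled replicate 1, 4 without AGS NINJ1-labelled replicate 2 and 12 without either HGC-27 NINJ1-labelled library. With DESeq2, which used every library, it was also 4. There ADAMTS5, ADAMTS6 and MMP24 missed the threshold, and 3 members called by edgeR were given no adjusted p. ADAMTS10 kept its call in each of these fits with a library left out. Without replicate 1 the calls of ADAMTS4, ADAMTS5, ADAMTS6, MMP17, MMP24 and TIMP3 ended (edgeR adjusted p = 0.0593, 0.120, 0.0593, 0.0790, 0.0859 and 0.0650). Without replicate 2, whose line is in doubt, those of ADAM15, ADAMTS4, ADAMTS5, ADAMTS20, MMP24 and TIMP3 did (0.101, 0.328, 0.156, 0.0807, 0.191 and 0.166). With lines as titled 0 members and 0% of all genes were called (edgeR, with 2 members and 595 genes at an unadjusted p under 0.05).

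The third comparison, the HGC-27 NINJ1-labelled libraries against the HGC-27 control, had calls for 26 of 38 members, 16 higher and 10 lower. This is 68.4% of members beside 63% of all tested genes (34% higher and 29.1% lower), a share near the background. The members called higher had a median GC content of 61.9% and those called lower 40.8%, in the contrast whose control is poor in GC-rich transcripts. A correction was therefore applied that subtracts, in each library, the median deviation of log2 CPM of genes of like GC content in 40 bins. With it 7 members were higher and 11 lower, 47.4% beside 49% of all genes (23.7% higher and 25.3% lower). It kept 11 of the 26 calls in their direction, ended 11 and turned 4, and it brought 3 new ones (ADAMTS20, MMP28 and TIMP2). The median log2 change of members was 0.95 without and -0.08 with the correction, beside 0.12 and 0.02 over all tested genes.

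The 11 calls that stood with and without the correction were of both signs. TIMP3 was at 9.99 and 10.6 FPKM in HGC-27 NINJ1-labelled libraries against 15.0 FPKM in the HGC-27 control (log2 -0.94, SE 0.15, edgeR adjusted p = 1.64e-06, and -0.89 with the correction). ADAM12, a sheddase expressed in mesenchyme and placenta, fell to 3.66 and 2.86 FPKM in NINJ1-labelled libraries, against 7.78 FPKM in the control (log2 -1.65, SE 0.15, edgeR adjusted p = 3.82e-11, and -1.42 with the correction). ADAMTS5 was at 0.71 and 0.47 FPKM in NINJ1-labelled libraries against 2.40 FPKM in the control (log2 -2.42, SE 0.22, edgeR adjusted p = 2.41e-11, and -1.76 with the correction). In all 3 genes both NINJ1-labelled libraries lay below the control. ADAM17 and ADAMTS6 also fell, by 1.24 and 1.46 on the log2 scale without the correction and by 0.47 and 0.90 with it. ADAMTS1 rose to 7.74 and 7.26 FPKM in NINJ1-labelled libraries, against 2.95 FPKM in the control (log2 0.95, SE 0.17, edgeR adjusted p = 1.29e-05, and 1.01 with the correction). MMP14 had 2.41 and 2.55 FPKM in NINJ1-labelled libraries against 0.35 FPKM in the control, with a log2 change of 2.44 (SE 0.37, edgeR adjusted p = 5.83e-07) that was 0.90 with the correction (adjusted p = 0.0368). ADAMTS13, ADAMTS14 and ADAM32 had no count in the HGC-27 control and were at least 41.0-fold, 15.9-fold and 6.06-fold higher in NINJ1-labelled libraries without the correction. With it these bounds were 7.83-fold, 4.05-fold and 9.99-fold. ADAM11, a protein without protease activity known from neurons, had 56 and 47 counts in NINJ1-labelled libraries against 2 in the control (edgeR adjusted p = 8.74e-07, and 0.0142 with the correction). Most epithelial markers were lower in the same libraries: the list summed to 130.8 and 155.2 FPKM in NINJ1-labelled libraries against 203 FPKM in the control. Of 5 tested of 6, 4 fell and 1 rose, with and without the correction. Among those that fell, KRT8 was at 53.7 and 61.4 FPKM in NINJ1-labelled libraries against 82.8 FPKM in the control, and EPCAM at 3.81 and 4.12 FPKM in NINJ1-labelled libraries against 7.93 FPKM in the control. Fibroblast markers summed to 5.42 and 5.82 FPKM in NINJ1-labelled libraries against 1.10 FPKM in the control, but went both ways. Of 3 tested of 7, 1 was higher and 1 lower, with and without the correction. In each NINJ1-labelled library 1 of the 7 reached 1 FPKM, and in the control 0 did. The part of these lists in the members' change was not tested.

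Several of the most abundant members took their direction from the scaling. ADAM15 had 24.9 and 27.7 FPKM in HGC-27 NINJ1-labelled libraries against 4.97 FPKM in the HGC-27 control, and its log2 change was 2.01 without (edgeR adjusted p = 1.80e-13) and -0.34 with the correction (adjusted p = 0.00992). MMP15 (ENSG00000102996, chr16:58025566-58046901, plus strand) had 18.6 and 20.1 FPKM in NINJ1-labelled libraries against 4.01 FPKM in the control, with log2 changes of 1.88 without and -0.94 with the correction. ADAMTS7 and ADAMTS10 turned likewise, with log2 changes of 1.35 and 1.58 without and -1.39 and -1.01 with it. The direction of these 4 genes in HGC-27 thus flips with the scaling. TIMP1, at 85.6 and 87.8 FPKM in NINJ1-labelled libraries against 20.5 FPKM in the control, had a log2 change of 1.68 (edgeR adjusted p = 5.03e-12) that was 0.26 with the correction (adjusted p = 0.0578). MMP17 had 7.62 and 9.55 FPKM in NINJ1-labelled libraries against 0.73 FPKM in the control, a log2 change of 3.16 that was 0.08 with the correction (adjusted p = 0.804). The calls of ADAM8, ADAM9, ADAM10, ADAM22, ADAMTS15, ADAMTS16, MMP7, MMP13 and MMP24 also ended with it. MMP7 (matrilysin), whose promoter is printed above, had 8 and 4 counts in NINJ1-labelled libraries against 27 in the control, through which alone it passed the filter. MMP13 had 0 and 0 counts in NINJ1-labelled libraries against 4 in the control, which is at least 1.43-fold lower without the correction and sets no bound with it. TIMP2, at 22.2 and 19.4 FPKM in NINJ1-labelled libraries against 16.5 FPKM in the control, was called with the correction alone (log2 -0.06 without and -0.83 with it, adjusted p = 9.57e-07). With lines as titled, 5 members were called in HGC-27, beside 12.2% of all genes.

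**Figure D5:**
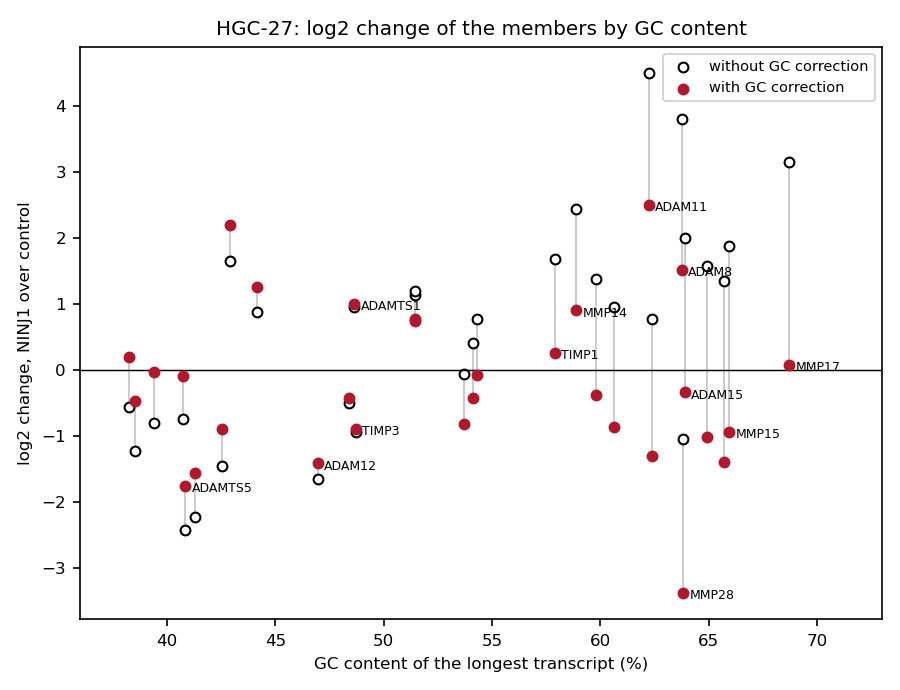
Log2 change, NINJ1-labelled over control, in HGC-27 against the GC content of each gene's longest transcript for 31 members, with open points without and filled points with the GC correction, and grey lines joining the points of a gene. The 7 members with no count in all libraries of 1 group are left out. Above 55% GC most pairs of points are far apart, with MMP15 and ADAM15 crossing 0, while TIMP3, ADAM12 and ADAMTS1 move little.

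The change differed between the lines for some members, at a share near that of all genes without the GC correction and below it with the correction. The test of the difference (NINJ1-labelled against control in AGS minus that in HGC-27) called 23 members, 6 higher and 17 lower, 60.5% beside 54.2% of all tested genes (23.9% higher and 30.2% lower), and 8 with the GC correction, 21.1% beside 34.9%. Called with the same sign in both fits were ADAM12, ADAM32, ADAMTS1, ADAMTS5, ADAMTS13 and ADAMTS20. ADAM12 had log2 changes of -0.33 in AGS and -1.65 in HGC-27, a difference of 1.32 (SE 0.23, edgeR adjusted p = 1.33e-05). ADAMTS1 had -0.15 in AGS and 0.95 in HGC-27 (difference -1.10, SE 0.24, edgeR adjusted p = 0.000266). For ADAMTS5 the changes were -0.70 in AGS and -2.42 in HGC-27, both falls (difference 1.73, SE 0.32, edgeR adjusted p = 2.98e-05). TIMP3, which fell in both lines, was not called in this test (difference 0.30, SE 0.23, edgeR adjusted p = 0.278). The titled lines gave 0 called members and 0% of all genes in this test (edgeR, with 9 members and 4459 genes at an unadjusted p under 0.05).

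A model of line plus treatment set the 4 NINJ1-labelled libraries of both lines against the 2 controls. No member was called and 0% of all tested genes were (edgeR, with 8 members and 2257 genes at an unadjusted p under 0.05), while DESeq2 called 3 members and 315 genes. With the GC correction 1.81% of genes were called (1.49% lower) and 1 member, TIMP3 (log2 -0.78, edgeR adjusted p = 0.0417, and -0.79 with adjusted p = 0.355 without the correction). TIMP3 lay below its line's control in 4 of 4 NINJ1-labelled libraries. The same model with lines as titled called 0 members and 0% of all genes (edgeR, with 5 members and 1060 genes at an unadjusted p under 0.05).

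Genes that act with these proteases were described from lists of 1 to 12 tested genes, whose choice was made with earlier results of these data known. Their counts between the lines are to be read beside 20.2% of all tested genes higher and 20% lower in AGS. Between the lines, 2 of 3 convertases that remove protease propeptides were higher in AGS, among them FURIN, at 37.1 and 35.6 FPKM in AGS NINJ1-labelled libraries against 17.8 and 20.1 FPKM in HGC-27 NINJ1-labelled libraries (log2 0.93, SE 0.11, edgeR adjusted p = 1.49e-08). Of 4 tested genes of plasminogen activation, a cascade upstream of MMPs, 3 were higher and 0 lower: the activator PLAT (log2 3.80, SE 0.49), the receptor PLAUR (0.55, SE 0.12) and the inhibitor SERPINE2. SERPINE2 stood at 41.1 and 33.9 FPKM in AGS NINJ1-labelled libraries against 2.19 and 1.83 FPKM in HGC-27 NINJ1-labelled libraries (log2 4.22, SE 0.13, edgeR adjusted p = 4.20e-23). Partners that carry ADAM10 or ADAM17 to the surface had 4 of 9 higher and 2 lower, with TSPAN15 at log2 -1.98 (SE 0.20). Of 7 EGF-family ligands released by ADAMs, 2 were higher and 4 lower, with EREG at log2 -3.79 (SE 0.29) and TGFA at -2.02 (SE 0.16). Other inhibitors and receptors had 2 of 5 higher (LRP1, an endocytic receptor of proteases, at log2 1.23, and RECK, a membrane inhibitor of MMPs, at 1.38) and SPOCK1 lower. ADAMTS-like proteins had 1 of 4 higher and 2 lower, AP-1 and ETS factors 4 of 12 higher and 4 lower, and the 1 tested proteoglycan, BCAN, was not called.

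In AGS, NINJ1-labelled against control, the lists are to be read beside 5.73% of all tested genes higher and 9.3% lower. LRP1 fell to 24.2 and 24.8 FPKM in NINJ1-labelled libraries, against 48.3 FPKM in the control (log2 -1.03, SE 0.13, edgeR adjusted p = 2.39e-07), and 3 of the 5 genes listed as inhibitors and receptors, LRP1 included, fell. Of these BSG, an inducer of MMPs, was at an adjusted p of 0.0455 (edgeR), which the GC correction moved to 0.262. FURIN (log2 -0.73, SE 0.13) was the convertase that fell, and of the ADAMTS-like genes 2 of 4 fell, PAPLN (-1.10, SE 0.22) and ADAMTSL4 (-0.64, SE 0.18), of which ADAMTSL4 lost its call with the correction (edgeR adjusted p = 0.0541). Of the 9 partners 1 rose and 1 fell, of the 7 EGF-family ligands 0 were called (edgeR), and of the 12 AP-1 and ETS factors 3 rose and 4 fell, with FOS at log2 -1.31 (SE 0.17). Of the 4 plasminogen genes PLAT fell (log2 -1.13, SE 0.37, edgeR adjusted p = 0.0324) and 0 rose.

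In HGC-27, NINJ1-labelled against control, the lists are to be read beside 34% of all tested genes higher and 29.1% lower, or 23.7% and 25.3% with the GC correction. The partners of ADAM10 and ADAM17 had 7 of 9 higher and 0 lower without the correction and 6 higher and 1 lower with it. FRMD8, which stabilises the ADAM17 complex, had 23.7 and 26.1 FPKM in NINJ1-labelled libraries against 1.06 FPKM in the control (log2 4.15, SE 0.20, edgeR adjusted p = 1.16e-17, and 2.24 with the correction). Of the AP-1 and ETS factors 7 of 12 were higher and 1 lower without the correction, and 6 higher and 2 lower with it. EGF-family ligands had 2 of 7 higher and 1 lower without the correction, and 3 higher and 0 lower with it. Of the other lists, ADAMTS-like genes had 3 of 4 higher and 1 lower without the correction and 1 higher and 2 lower with it, and inhibitors and receptors 2 of 5 higher and 1 lower without it and 0 higher and 1 lower with it. The convertases had 1 of 3 higher and 0 lower without the correction and 1 higher and 2 lower with it, where FURIN turned, with a log2 change of 1.19 without and -0.79 with the correction. Plasminogen genes had 1 of 4 higher and 1 lower without the correction and 1 higher and 0 lower with it, and BCAN was higher without the correction alone.

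Some members lie next to each other in the genome. ADAM9 and ADAM32 are 1846 bases apart on chromosome 8 and were both higher in AGS. In HGC-27, NINJ1-labelled against control, ADAM9 was called lower without the GC correction alone and ADAM32 higher. ADAMTS8 and ADAMTS15, 19981 bases apart on chromosome 11, were also both higher in AGS. ADAMTS1 and ADAMTS5, 72503 bases apart on chromosome 21, were called in opposite directions between the lines and again in HGC-27, NINJ1-labelled against control. The cluster of 9 secreted MMP genes at chr11:102520508-102955734 gave tested genes only for MMP1, MMP7 and MMP13. TIMP1, TIMP3 and TIMP4 lie inside SYN1, SYN3 and SYN2 on the opposite strand, and these synapsin genes had 0 to 19 counts per library. Of the tested members, 11 share exon bases with another gene, up to 21.8% of MMP24 and 13.6% of ADAM17. The strand setting of the counting is not given in the sources used here, so reads from such overlaps cannot be told apart.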

How the data were processed

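Polyadenylated RNA of AGS and HGC-27 cells was sequenced after libraries had been made with a NEBNext Ultra kit, per the labels' protocols. HISAT2, HTSeq 0.13.5 and the build GRCh38 are named in the submitters' processing notes, and the annotation release and strand setting are not given in the sources used here. The authors deposited 1 table per library, with a read count per gene and its FPKM, per the file headers. The deposited FPKM values were used for levels and the deposited counts for tests.

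Positions, gene types and the GC content of the longest transcript came from GENCODE 29. Counts were tested with edgeR 4.0.16 in R 4.3.3 (filterByExpr with a minimum count of 10, TMM, two-sided quasi-likelihood F tests, Benjamini-Hochberg adjustment over all genes, threshold 0.05). A 4-group model (line by treatment) was fitted to all 6 libraries, and a model of line plus treatment gave the comparison over both lines. Each line has 1 control, so the 2 pairs of NINJ1-labelled libraries alone give the spread and the controls are assumed to vary like them. The SE is that of the log2 change. Bounds are ratios of mean scaled CPM with 3 counts set in each empty library. The code was tested on simulated data.

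The alternatives were DESeq2 1.42.0, its size factors, no filter or a mean FPKM of at least 1, the GC correction in 40 bins, the replicate number as a block, other line assignments, each library left out, and limma 3.58.1 on log2(FPKM + 1) or log2(FPKM + 0.1). After seeing the data, the additive model with GC correction, the GC correction without the HGC-27 control and the bounds with that correction or without a library were added. The members and lists were chosen with earlier results of these data known. 1 listed gene is not reported here. Members described singly had at least 1 FPKM in at least 2 libraries or passed in a comparison, apart from MMP2 and ADAM21, whose counts are given. Of a list, up to 3 genes with the smallest p were eligible for values, and the markers were given as levels.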

Additional observations from a re-analysis of the deposited data

Results flagged for a closer look

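For 7 members the change between NINJ1-labelled and control libraries differed between AGS and HGC-27 by a test of the difference itself, called both with and without the GC correction (edgeR, adjusted over all tested genes). Another 16 members were called without the correction only. Of all tested genes, 54.2% were called in this test without the correction and 34.9% with it. The log2 difference, AGS minus HGC-27, was 1.32 for ADAM12 (edgeR adjusted p = 1.33e-05, and 1.04 with the correction), 1.73 for ADAMTS5 (adjusted p = 2.98e-05, and 0.96 with the correction) and -1.10 for ADAMTS1 (adjusted p = 0.000266, and -1.19 with the correction). ADAM12 fell in HGC-27 and was not called in AGS, ADAMTS5 fell in both lines and more in HGC-27, and ADAMTS1 rose in HGC-27 and was not called in AGS. MMP15 had a difference of -2.04 (edgeR adjusted p = 7.81e-10) that turned to 1.19 with the correction (adjusted p = 9.91e-06), so its direction depends on the scaling.

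Fitted differences of ADAM32 (-7.06), ADAMTS13 (-10.64) and ADAMTS20 (-6.12) depend on the prior count and are no bounds. ADAM32 had 15 and 24 counts in HGC-27 NINJ1-labelled libraries against 0 in the HGC-27 control, and 47 and 57 in AGS NINJ1-labelled libraries against 49 in the AGS control. ADAMTS13 had 132 and 131 counts in HGC-27 NINJ1-labelled libraries against 0 in the HGC-27 control, and 23 and 15 in AGS NINJ1-labelled libraries against 32 in the AGS control. ADAMTS20 had 41 and 20 counts in HGC-27 NINJ1-labelled libraries against 9 in the HGC-27 control, and 1 and 0 in AGS NINJ1-labelled libraries against 14 in the AGS control. Each of these differences contains the 2 controls, 1 library per line, and the HGC-27 control is the library poor in GC-rich transcripts. With lines as titled none of the 7 was called (edgeR).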

How the results depend on the processing

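The tally that follows covers the members called in the main fits. For the test of the difference it holds only the 7 called with and without the GC correction. The 16 whose calls ended with that correction are left out, as are 3 values without an adjusted p in DESeq2. Over the alternatives run, 806 values kept their direction and side of the threshold, 163 no longer passed it and 42 changed sign. The cause was not tested where no value below shows it. The share of all tested genes called moved beside many of the counts below. Between the lines it was 40.2%, but 6.14% in the additive model of 6 libraries and 0% with lines as titled. In AGS it was 15%, and 7.48% with DESeq2. The fit to the 4 libraries of certain line was also a model of line plus treatment. Members called between AGS and HGC-27 (22) numbered 20 to 24 with 1 library left out, 10 at a mean FPKM of at least 1 (16 tested), 13 and 12 with limma on log2(FPKM + 1) and log2(FPKM + 0.1) (22 tested), 6 in the additive model of 6 libraries, 17 in that model with the GC correction, 1 with the 4 libraries of certain line and 0 with lines as titled (edgeR). In AGS, NINJ1-labelled against control, the 10 calls were 4 to 12 with a library left out, 4 with DESeq2, 5 at a mean FPKM of at least 1, 1 and 0 with limma and 0 with lines as titled. In HGC-27 the 26 calls were 24 to 27 with a library left out, 14 at a mean FPKM of at least 1 and 5 with lines as titled. The 23 calls of the difference numbered 23 with each of the 4 NINJ1-labelled libraries left out (6 or 7 higher), and were 14 at a mean FPKM of at least 1, 8 with the GC correction, 8 with GC correction and replicate block, 0 with lines as titled and 15 with limma at either pseudocount. Over both lines the count of 0 was 3 with DESeq2, 1 with the GC correction and 0 to 26 with a library left out. Leaving out a control removes its line from that comparison, so that the fits without the HGC-27 control (10 members and 15.8% of all genes, and 9 and 18.6% with the GC correction) are the AGS comparison, and the fit without the AGS control (26 members and 64.1% of all genes) is the HGC-27 comparison.

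With lines as titled, 17 line differences changed sign and none was called: ADAM8 0.11, ADAM9 -0.076, ADAM10 -0.036, ADAM17 -0.048, ADAM32 -0.014, ADAMTS5 -0.18, ADAMTS9 0.12, ADAMTS13 0.050, ADAMTS14 0.51, ADAMTS15 -0.19, ADAMTS16 0.21, MMP1 -1.52, MMP14 0.13, MMP28 0.61, TIMP2 -0.10, TIMP3 0.10 and TIMP4 -0.066 (log2). So did TIMP3 in AGS (0.40), ADAMTS16 in HGC-27 (-0.14) and, among the members of the difference in the tally, ADAMTS1 (0.18). With the 4 libraries of certain line, in the model of line plus treatment that includes both controls, the line differences of ADAM8 (0.053), ADAM10 (-0.011) and ADAMTS13 (0.85) changed sign. In HGC-27 the GC correction, which removes the GC trend by construction, turned ADAM10 (0.19), ADAM15 (-0.34), ADAMTS7 (-1.39), ADAMTS10 (-1.01), ADAMTS15 (-0.38), ADAMTS16 (-0.074), MMP15 (-0.94) and MMP24 (-0.87). Among the members of the difference in the tally it turned MMP15 (1.19). With the replicate block as well these values were 0.19, -0.33, -1.21, -0.80, -0.39, -0.23, -0.91, -0.66 and 1.19, and MMP17 was -0.0041. Of all 23 members called in the difference, the GC correction changed the sign of 6.

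The replicate number gives 2 pairs, whose deviations had a correlation of 0.00841 over 17617 genes. Whether libraries of the same number shared a culture or preparation is not in the labels, and this value cannot decide it. With the replicate block the counts of called members were 22 between the lines, 8 in AGS, 25 in HGC-27, 23 for the difference and 0 over both lines (edgeR). The median of all genes in HGC-27 was 0.12 with edgeR, 0.02 with the GC correction and 0.32 with limma on log2(FPKM + 1). The 4 libraries of certain line gave no separate test within a line, and a line's control could not be left out of its own contrast. At these depths members with fewer than about 10 counts were not testable, and a level of 0 counts allows up to 3.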
